A study of Homo sapiens with 18 samples.

Results

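A module of 52 genes whose products build the kinetochore, drive the spindle, condense the chromosomes and divide the cell was followed in G401 cells, an established malignant rhabdoid tumour line. The 52 genes were taken by name from a deposited table of 55765 genes and were chosen by function, with earlier results of these data known. All 52 were in the table, and all passed the minimum mean of 10 normalized counts that left 16154 genes for testing. RNA was polyA-selected and sequenced as 18 libraries in 6 groups of 3 biological replicates. The control line (WT) had been cut with CRISPR/Cas9 at AAVS1, a site used as a harmless target, and kept RB1. Clones E1 and F2 had both copies of RB1, the retinoblastoma tumour suppressor gene, deleted in the same line. Each line was grown for 11 days with either 10 µM tazemetostat, an inhibitor of the H3K27 methyltransferase EZH2, or the same volume of DMSO, its solvent. The 6 groups are therefore WT with DMSO, WT with tazemetostat, E1 with DMSO, E1 with tazemetostat, F2 with DMSO and F2 with tazemetostat. E1 and F2 are 1 clone each, so that loss of RB1 and the history of a clone cannot be told apart within either of them. The labels do not say whether the replicates were grown as separate cultures, and the p-values measure the spread between these libraries.

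During mitosis the kinetochore assembles on centromeric chromatin and binds spindle microtubules, condensin compacts the chromosomes, and motor proteins slide and shorten the microtubules that separate them. The spindle checkpoint delays anaphase until every kinetochore is attached, after which the anaphase-promoting complex marks cyclin B and securin for destruction and the central spindle directs the cleavage furrow. Cells make most of these transcripts late in the cycle: the MuvB complex, together with RB-family pocket proteins, holds the genes down in resting cells, and with B-MYB and FOXM1 it activates them in dividing cells, largely through a short promoter element, the cell cycle genes homology region (CHR). Which pocket proteins act on these genes in G401 cells, and whether RB1 is among them, was not tested.

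The reads counted in genes ran from 25709489 (F2 with DMSO, replicate 3) to 39314860 (WT with tazemetostat, replicate 2). They were recovered from the deposited normalized counts and leave out reads not assigned to a gene. The lowest value of any member in any library rested on 152 reads. RB1, the targeted gene, read 2828, 2687 and 2565 normalized counts in the 3 WT libraries with DMSO. It read 658, 505 and 780 in E1 and 861, 804 and 852 in F2, log2 differences from WT of -2.08 (SE 0.11) and -1.68 (SE 0.11). No clone library overlapped the WT libraries, and the exact two-sided permutation p of 0.1 for either clone is the smallest that 3 against 3 can give. RB1 RNA was lower in the clones but present, and these counts do not test the protein. SMARCB1, the gene whose loss defines rhabdoid tumours, had 0 reads in all 18 libraries, while SMARCA4 and VIM were abundant. The immune markers PTPRC, CD3E and CD14 stayed at or below 3.70 normalized counts. The endothelial markers CDH5 and VWF were at most 0.9 and 8.9 in the DMSO libraries and reached 28.3 and 37.3 with tazemetostat, and their part in the results below was not tested.

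In WT cells every one of the 52 genes was lower with tazemetostat than with DMSO. With DMSO the 52 genes together held 0.683% ± 0.012 (SD, n = 3) of all reads counted in genes, and with tazemetostat 0.263% ± 0.0126 (SD, n = 3). In E1 the share was 0.646% ± 0.0347 with DMSO and 0.615% ± 0.0316 with tazemetostat, and in F2 it was 0.848% ± 0.0195 and 0.771% ± 0.0223 (SD, n = 3 each). The WT group with tazemetostat thus lay far below the other 5 groups. In bulk RNA, fewer cells in mitosis and less mitotic RNA per dividing cell cannot be told apart. A gene is called here when its Benjamini-Hochberg adjusted p over all 16154 tested genes is under 0.05 and its log2 change, on the log2(value + 1) scale, is at least 1 in size. By that rule 36 of the 52 genes fell in WT and 0 rose, against 6.77% of all tested genes called lower and 14.5% called higher. The median log2 change was -1.23 over the members and 0.03 over all tested genes. Without the limit on size, all 52 were lower (29.4% of all tested genes) and 0 higher (34.8%), and in all 52 the 3 libraries with tazemetostat lay below the 3 with DMSO (32.9% of all tested genes).

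**Figure D1:**
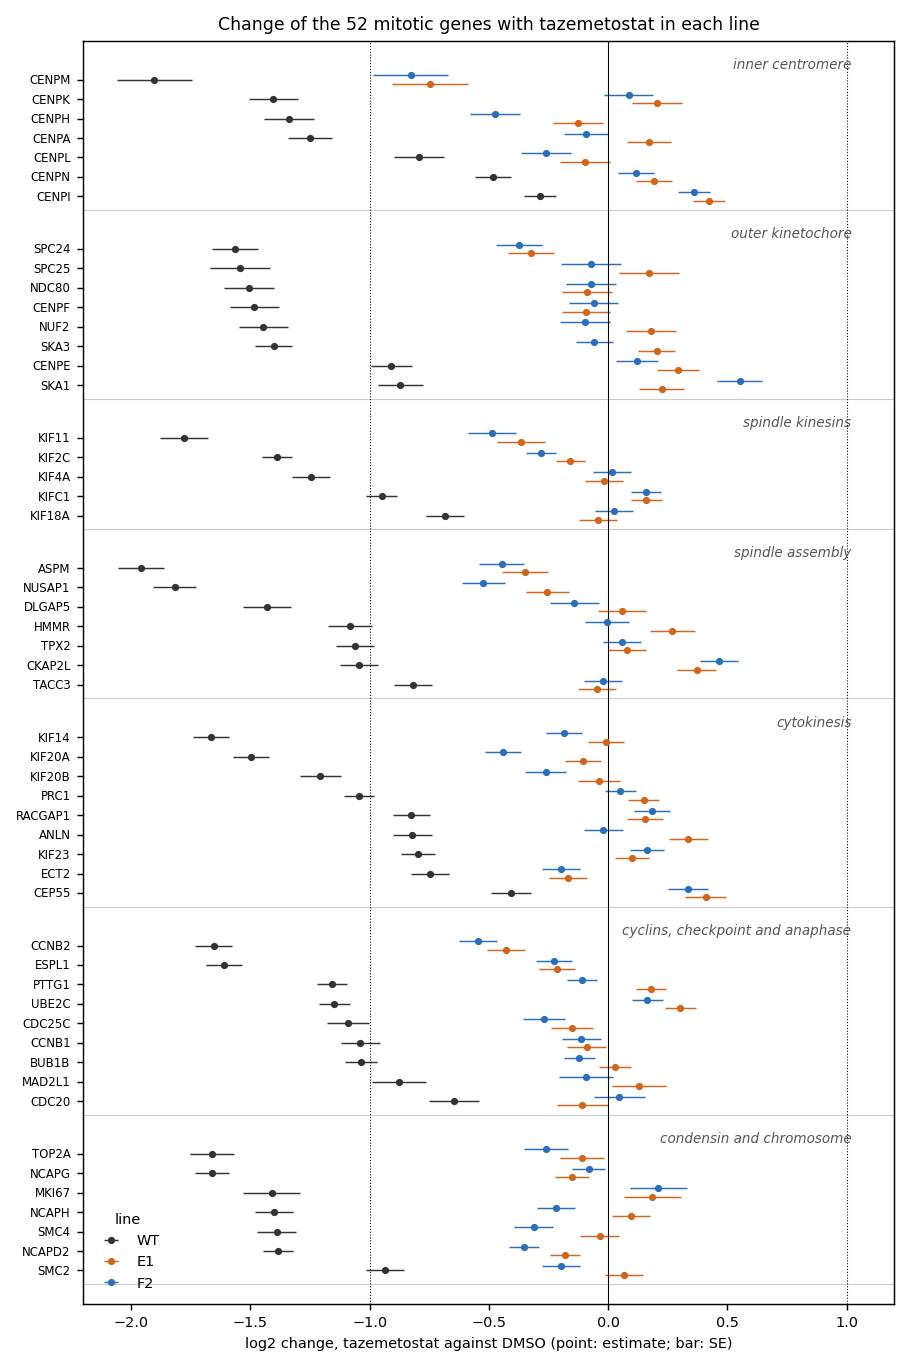
Log2 change with tazemetostat against DMSO for each of the 52 genes, grouped by role, in WT (black), E1 (orange) and F2 (blue). Points are limma estimates with SE bars, and dotted lines mark a log2 change of 1 in size. The WT points lie between -1.96 (ASPM) and -0.29 (CENPI), and the points of both clones lie between -0.83 and 0.55.

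Many of the members' promoters share sequence features. Promoter sequence was not used to choose the members. They were chosen by function, however, and genes of that function are activated largely through the CHR, as described above. The choice was therefore not independent of the CHR. RefSeq promoter windows (build GRCh38.p14, 250 bases before to 50 bases after the gene start) matched 46 of the 52 genes by symbol. CENPH, CENPL, CENPM, RACGAP1, TPX2 and UBE2C were not matched. The upstream 250 bases are shown for the gene with the largest fall in WT among those with a CHR match in each of 4 role groups, because these are genes that moved together. Sequences run 5′ to 3′ on the gene's own strand, and capitals mark CHR matches (TTTGAA or TTCGAA) and CCAAT boxes (CCAAT) on either strand, so that TTCAAA and ATTGG are the same elements read from the other strand.
CENPA, chr2:26785806-26786055, plus strand: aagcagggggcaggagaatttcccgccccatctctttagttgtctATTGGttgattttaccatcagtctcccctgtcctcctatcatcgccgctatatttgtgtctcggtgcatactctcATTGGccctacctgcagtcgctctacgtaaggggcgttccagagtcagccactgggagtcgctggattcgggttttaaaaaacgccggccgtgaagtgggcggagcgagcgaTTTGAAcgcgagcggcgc
KIF11, chr10:92592880-92593129, plus strand: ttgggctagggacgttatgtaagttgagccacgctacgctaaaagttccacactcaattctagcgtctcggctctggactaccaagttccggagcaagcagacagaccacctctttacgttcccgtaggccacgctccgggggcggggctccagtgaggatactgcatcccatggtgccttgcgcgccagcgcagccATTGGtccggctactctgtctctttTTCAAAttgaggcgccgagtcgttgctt
CCNB2, chr15:59104896-59105145, plus strand: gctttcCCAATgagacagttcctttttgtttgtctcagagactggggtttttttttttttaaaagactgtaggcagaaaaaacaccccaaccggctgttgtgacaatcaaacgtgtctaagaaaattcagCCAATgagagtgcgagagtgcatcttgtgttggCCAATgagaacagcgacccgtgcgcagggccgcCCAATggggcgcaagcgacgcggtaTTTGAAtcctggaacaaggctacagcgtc
TOP2A, chr17:40417897-40418146, minus strand: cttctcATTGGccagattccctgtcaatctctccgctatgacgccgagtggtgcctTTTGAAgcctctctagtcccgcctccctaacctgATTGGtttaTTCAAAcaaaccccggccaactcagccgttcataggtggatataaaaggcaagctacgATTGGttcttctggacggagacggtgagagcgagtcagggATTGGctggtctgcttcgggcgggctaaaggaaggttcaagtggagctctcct

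In CENPA, KIF11 and CCNB2 the CHR match lies close to the gene start, at positions -18, -28 and -29, with CCAAT boxes further upstream. TOP2A has 2 upstream CHR matches and 4 CCAAT boxes. A CHR match was present in the windows of 35 of 46 members (76.1%), against 16.6% of all 27305 promoters and 10.9% of the 10140 promoters of tested genes. A CCAAT box was present in 32 of 46 (69.6%), against 35.7% of all promoters and 36.3% of those of tested genes. An E2F-like match (on either strand, any of the words TTCCCGC and TTGGCGC or of the words TTCGCGC and TTGCCGC) was present in 17 of 46 (37.0%), against 13.1% and 20.4%. None of the words searched contains another, though matches may overlap at their ends. Both a CHR and a CCAAT box were found in 26 of 46 members (56.5%), against 6.58% and 4.54%. Counting every window of a gene with several, 78.3% of members and 15.5% of tested genes held a CHR match.

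CHR matches gathered near the gene start. In the 25 bases directly before it they were found in 26.1% of the members' windows, against 0.769% of those of tested genes. In the next 25 bases upstream the shares were 17.4% and 0.907%. CCAAT boxes peaked further upstream: 43.5% of members and 10.3% of tested genes had one in bases -75 to -51. The motifs were also counted by the change of each member in WT. Of the members called lower, 24 of 32 (75.0%) had a CHR match, and of those not called, 11 of 14 (78.6%). The median log2 change was -1.25 for the 35 members with a match and -1.16 for the 11 without. CCAAT boxes were in 75.0% of the members called lower and 57.1% of those not called, with median changes of -1.32 for the 32 members with one and -1.06 for the 14 without. E2F-like matches went the other way, in 31.2% of the called and 50.0% of the others, with medians of -1.09 for the 17 with one and -1.38 for the 29 without. No test was made of these differences. These matches describe letters in a window and are not tested binding sites.

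**Figure D2:**
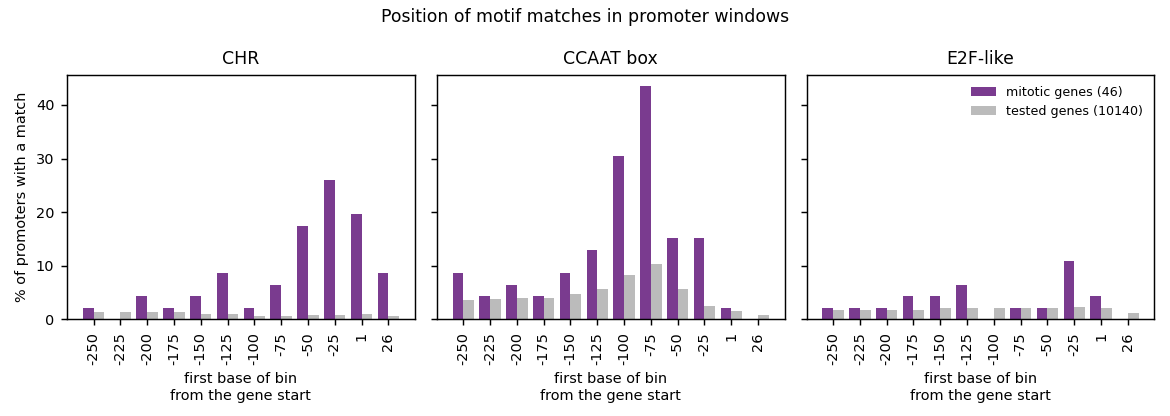
Share of promoter windows (%) with a match to each motif in bins of 25 bases, plotted by the first base of the bin relative to the gene start, for 46 members (purple) and 10140 tested genes (grey). CHR matches of the members peak at 26.1% in the bin that starts at -25, and CCAAT boxes at 43.5% in the bin that starts at -75.

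Of the 7 inner centromere genes, 4 fell in WT. CENPA, the histone H3 variant that marks the centromere, read 782, 714 and 675 in DMSO and 310, 322 and 278 in tazemetostat, a log2 change of -1.25 (SE 0.09, adjusted p = 8.88e-10). CENPM, a subunit of the constitutive centromere-associated network, had the largest change of this group. It read 736, 697 and 715 in DMSO and 182, 204 and 187 in tazemetostat, with a log2 change of -1.90 (SE 0.16, adjusted p = 4.62e-09). CENPK and CENPH of the same network also fell, by 1.40 and 1.34 on the log2 scale. CENPI was the least affected member of all 52. It read 1094, 1127 and 1042 in DMSO and 903, 948 and 828 in tazemetostat, a log2 change of -0.29 (SE 0.07, adjusted p = 0.00111), which passed the adjusted p but not the limit on size. CENPL (-0.79) and CENPN (-0.48) were likewise lower without being called. Estimates for subunits of the same network thus ranged widely: CENPM was left at 26.7% of its DMSO level and CENPI at 82.1%.

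The outer kinetochore genes fell more evenly, with 6 of 8 called and a median log2 change of -1.46. NDC80, the microtubule-binding subunit of the complex named after it, read 1982, 1917 and 1694 in DMSO and 652, 755 and 569 in tazemetostat, a log2 change of -1.51 (SE 0.10, adjusted p = 3.46e-10). SPC24, which joins that complex to the inner kinetochore, read 908, 894 and 872 in DMSO and 298, 333 and 275 in tazemetostat, the largest change of the group at -1.56 (SE 0.10, adjusted p = 6.9e-11). NUF2 and SPC25, the other two subunits, had log2 changes of -1.45 and -1.54, so that all 4 subunits of the NDC80 complex fell to between 33.8% and 36.7% of their DMSO levels. CENPF, a large kinetochore protein of late cell cycle, read 14373, 15166 and 14886 in DMSO and 5299, 5530 and 5071 in tazemetostat, a log2 change of -1.48 (SE 0.10, adjusted p = 2.8e-10). SKA3, a subunit of the SKA complex that holds on to shortening microtubules, changed by -1.40. Its partner SKA1 read 806, 771 and 722 in DMSO and 436, 475 and 353 in tazemetostat, a log2 change of -0.87 (SE 0.09, adjusted p = 1.81e-07), the smallest of the group and not called. CENPE, the kinetochore kinesin that carries chromosomes to the spindle equator, read 3282, 3202 and 3114 in DMSO and 1703, 1803 and 1611 in tazemetostat and was not called either, at -0.91 (SE 0.09, adjusted p = 3.49e-08).

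Among the 5 spindle kinesins 3 fell. KIF11, the motor that pushes the spindle poles apart, read 6787, 6400 and 5688 in DMSO and 1877, 1986 and 1639 in tazemetostat, a log2 change of -1.78 (SE 0.10, adjusted p = 1.41e-11). KIF2C, which takes tubulin off microtubule ends and corrects wrong attachments, read 3726, 3951 and 3495 in DMSO and 1409, 1496 and 1360 in tazemetostat, a log2 change of -1.39 (SE 0.06, adjusted p = 5.19e-13). KIF4A, a chromosome-bound motor, changed by -1.25. KIF18A, which damps chromosome movements at the spindle equator, had the smallest change, -0.68 (SE 0.08, adjusted p = 5.64e-07), from 1984, 1875 and 1723 to 1191, 1221 and 1063. KIFC1, which bundles microtubules at the poles, changed by -0.95. These last 2 motors were lower past the adjusted p without reaching the limit on size.

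Of the 7 spindle assembly genes, 6 fell. ASPM, which focuses microtubules at the spindle poles, had the largest change of all 52 genes. It read 7270, 7568 and 7479 in DMSO and 1998, 1887 and 1855 in tazemetostat, a log2 change of -1.96 (SE 0.10, adjusted p = 1.94e-12), and was left at 25.7% of its DMSO level. NUSAP1, which bundles spindle microtubules near chromosomes, changed by -1.82 (SE 0.09, adjusted p = 2.64e-12). TPX2, the activator of Aurora A kinase at the spindle, read 8824, 8738 and 7922 in DMSO and 4086, 4385 and 3765 in tazemetostat, a log2 change of -1.06 (SE 0.08, adjusted p = 1.13e-09). DLGAP5 (-1.43), HMMR (-1.08) and CKAP2L (-1.05) fell as well. TACC3, which crosslinks the fibres that pull on kinetochores, read 4493, 4569 and 4347 in DMSO and 2454, 2559 and 2600 in tazemetostat and was not called, at -0.82 (SE 0.08, adjusted p = 4.31e-08).

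The cytokinesis genes had the smallest changes as a group, with 4 of 9 called and a median of -0.82. The kinesins KIF14, KIF20A and KIF20B had the largest changes. KIF14, a midbody motor, read 2637, 2622 and 2484 in DMSO and 837, 830 and 773 in tazemetostat, a log2 change of -1.67 (SE 0.08, adjusted p = 6.44e-13). KIF20A, which brings the chromosomal passenger complex to the central spindle, read 3521, 3572 and 3358 in DMSO and 1312, 1279 and 1117 in tazemetostat, a log2 change of -1.50 (SE 0.08, adjusted p = 3.33e-12). PRC1, which crosslinks the microtubules of the central spindle, was called only narrowly. It read 5031, 4918 and 4856 in DMSO and 2460, 2492 and 2233 in tazemetostat, a log2 change of -1.04 (SE 0.06, adjusted p = 6.48e-11), which became -0.99 and lost the call without WT tazemetostat replicate 3. ANLN, the scaffold of the contractile ring, read 9646, 9633 and 8755 in DMSO and 5398, 5665 and 4820 in tazemetostat and was not called, at -0.82 (SE 0.08, adjusted p = 5.87e-08). The regulators of the furrow ECT2 (-0.75), RACGAP1 (-0.82) and KIF23 (-0.80) were also under the limit. CEP55, which recruits the abscission machinery to the midbody, read 3021, 2841 and 2591 in DMSO and 2240, 2263 and 1878 in tazemetostat and changed least, by -0.41 (SE 0.08, adjusted p = 0.00038). In all 9 genes the WT libraries with tazemetostat lay below those with DMSO.

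Of the 9 cyclin, checkpoint and anaphase genes, 7 fell. CCNB2, a B-type cyclin, read 3072, 3121 and 2828 in DMSO and 939, 1001 and 924 in tazemetostat, a log2 change of -1.65 (SE 0.08, adjusted p = 1.43e-12). CCNB1, the main mitotic cyclin, read 9929, 9716 and 8712 in DMSO and 4791, 4744 and 4258 in tazemetostat, a smaller change of -1.04 (SE 0.08, adjusted p = 2.27e-09). ESPL1, the protease separase that releases sister chromatids, changed by -1.61, and PTTG1, its inhibitor securin, by -1.16. UBE2C, an ubiquitin-conjugating enzyme that works with the anaphase-promoting complex, read 2869, 3015 and 2900 in DMSO and 1318, 1424 and 1229 in tazemetostat, a log2 change of -1.15 (SE 0.07, adjusted p = 1.8e-11). The checkpoint kinase gene BUB1B (-1.04) and CDC25C (-1.09), a phosphatase that switches on mitotic entry, fell, while the checkpoint gene MAD2L1 (-0.88) stayed under the limit. CDC20, the activator of the anaphase-promoting complex, read 5168, 5288 and 4710 in DMSO and 3276, 3246 and 3155 in tazemetostat and had the smallest change of the group, -0.65 (SE 0.11, adjusted p = 3.24e-05). Without WT tazemetostat replicate 3 the changes of CCNB1 and BUB1B were -0.98 and -0.96, and neither was then called.

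The condensin and chromosome genes fell in 6 of 7 cases. NCAPG, a condensin I subunit, read 4890, 4943 and 4381 in DMSO and 1526, 1606 and 1369 in tazemetostat, a log2 change of -1.66 (SE 0.07, adjusted p = 2.73e-13). NCAPH (-1.40) and NCAPD2 (-1.38) of the same complex fell too, so that all 3 members found in condensin I but not in condensin II were called. Of the 2 ATPases common to both condensins, SMC4 fell (-1.39) and SMC2 did not pass the limit, at -0.93 (SE 0.08, adjusted p = 5.87e-09). TOP2A, the topoisomerase that untangles sister chromatids, read 21157, 20551 and 18966 in DMSO and 6582, 6868 and 5757 in tazemetostat, a log2 change of -1.66 (SE 0.09, adjusted p = 1.26e-11). MKI67, which coats mitotic chromosomes and encodes the proliferation marker Ki-67, read 13650, 16489 and 16217 in DMSO and 5768, 6023 and 5598 in tazemetostat, a log2 change of -1.41 (SE 0.12, adjusted p = 5.72e-09).

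Across all 18 libraries, 51 of the 52 genes had their 3 lowest values in the 3 WT libraries with tazemetostat, a pattern seen in 12.1% of all tested genes. The exception was CENPI. The WT group with tazemetostat had the lowest mean for all 52, and the highest mean lay in F2 with DMSO for 34, in F2 with tazemetostat for 17 and in E1 with DMSO for 1. Groups next to each other in that order can overlap: for NDC80 the 3 libraries of F2 with DMSO, the highest group, overlapped those of F2 with tazemetostat.

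**Figure D3:**
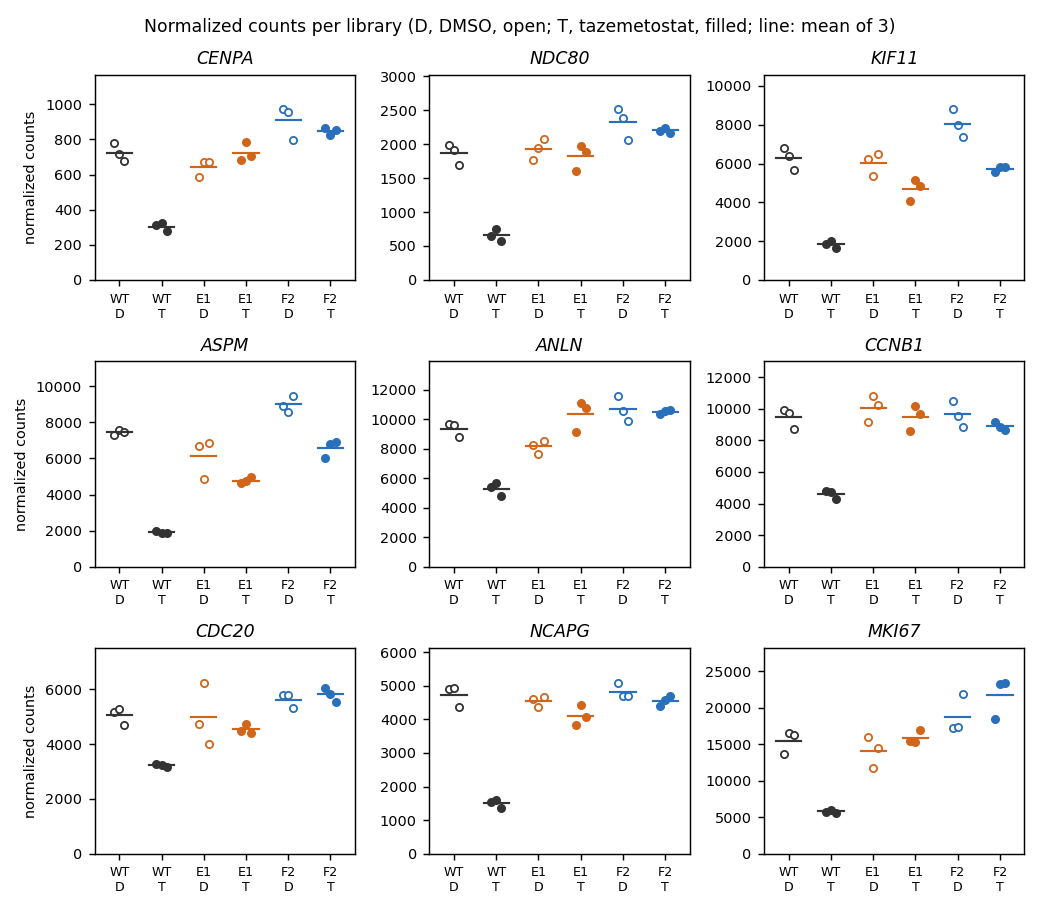
Normalized counts of 9 members in each of the 18 libraries (open points, DMSO; filled points, tazemetostat; horizontal line, mean of 3 libraries; each panel starts at 0). The 3 WT tazemetostat libraries lie below all other 15 libraries in every panel.

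In E1, 0 of the 52 genes were called in either direction with tazemetostat, while 3.78% of all tested genes were called lower and 11.3% higher. edgeR and DESeq2 on the recovered reads also called 0, and 24 members had an unadjusted p under 0.05 in limma and 24 in edgeR. The share of all tested genes with an unadjusted p under 0.05 was not counted, here or for the members and related lists below. Such counts are therefore not read as a response of these genes. The median log2 change was 0.01, with a range from -0.75 (CENPM) to 0.42 (CENPI). Without the limit on size, 9 genes were lower (19.7% of all tested genes) and 11 higher (27.1%). As shares of the 52, both counts were below those of all tested genes. The 9 were CENPM, CCNB2, KIF11, ASPM, SPC24, NUSAP1, ESPL1, NCAPD2 and KIF2C, and the 11 were CENPI, CEP55, CKAP2L, ANLN, UBE2C, CENPE, HMMR, SKA3, CENPN, PTTG1 and KIFC1. When the libraries were rescaled to the same total, 13 were lower and 7 higher, and all tested genes were not counted in that setting. The 11 became 6 without DMSO replicate 1, 6 without tazemetostat replicate 2 and 5 without tazemetostat replicate 3. Over all tested genes the 4372 higher became 4118, 3975 and 3833 in the same fits.

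In F2, 0 of the 52 genes were called, against 3.71% of all tested genes called lower and 13.3% called higher. edgeR and DESeq2 called 0 as well, and 28 members had an unadjusted p under 0.05 in limma and 29 in edgeR. The median was -0.09, and values ran from -0.83 (CENPM) to 0.55 (SKA1). Without the limit on size, 20 genes were lower (23.2% of all tested genes) and 6 higher (29.0%). As shares of the 52, the lower genes were above that of all tested genes and the higher genes below it. The 20 became 12 without DMSO replicate 1 and 13 without tazemetostat replicate 1. Over all tested genes the 3754 lower became 3176 and 3360 in the same fits. The 6 higher genes were SKA1, CKAP2L, CENPI, CEP55, UBE2C and KIFC1.

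The values of single members in the clones follow, beginning with kinetochore genes. NDC80 read 1765, 1944 and 2083 with DMSO and 1599, 1980 and 1882 with tazemetostat in E1, a log2 change of -0.09 with a 95% interval of -0.29 to 0.12. In F2 NDC80 read 2521, 2390 and 2058 and 2199, 2239 and 2170, a change of -0.07 (-0.28 to 0.13). The groups overlapped in both clones, the sign in E1 turned without tazemetostat replicate 1, and neither interval reaches the change of -1.51 seen in WT. CENPA read 587, 669 and 674 and then 681, 785 and 707 in E1, a change of 0.17 (-0.01 to 0.35). In F2 it read 974, 957 and 796 and 866, 828 and 854, a change of -0.09 (-0.27 to 0.09). The treated libraries lay above the untreated ones in E1 and overlapped them in F2, and both intervals include 0.

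MKI67 read 16039, 11690 and 14425 with DMSO and 15389, 15251 and 16948 with tazemetostat in E1, a log2 change of 0.19 (-0.05 to 0.42). In F2 it read 17212, 17296 and 21806 and 18484, 23226 and 23440, a change of 0.21 (-0.02 to 0.44). Neither passed the adjusted p, and the groups overlapped in both clones. NCAPG read 4621, 4368 and 4678 and 3818, 4424 and 4074 in E1, and 5099, 4692 and 4698 and 4396, 4591 and 4694 in F2, changes of -0.15 (-0.29 to -0.01) and -0.08 (-0.22 to 0.06). The E1 value of NCAPG did not pass the adjusted p, although its interval left out 0. The intervals rest on a normal quantile and make no allowance for the number of genes tested. CCNB1 read 9133, 10824 and 10207 and 8565, 10143 and 9637 in E1 and 10482, 9566 and 8858 and 9163, 8839 and 8670 in F2, changes of -0.09 (-0.25 to 0.07) and -0.11 (-0.27 to 0.05). For CDC20 the change was -0.11 (-0.32 to 0.10) in E1 and 0.05 (-0.16 to 0.25) in F2. The sign of the F2 value turned with upper-quartile scaling, and that of the E1 value without E1 DMSO replicate 2. CENPF (-0.09 in E1, -0.06 in F2), TPX2 (0.08 and 0.06) and PRC1 (0.15 and 0.05) did not pass the adjusted p in either clone, and the sign of CENPF in F2 turned without tazemetostat replicate 1.

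Several genes were lower in both clones, each by less than in WT, and not all of them are named here. KIF11 read 6214, 5342 and 6512 with DMSO and 4066, 5140 and 4847 with tazemetostat in E1, a log2 change of -0.36 (SE 0.10, adjusted p = 0.00552). In F2 KIF11 read 8824, 7985 and 7344 and 5556, 5801 and 5839, a change of -0.49 (SE 0.10, adjusted p = 0.000431). The treated libraries lay below the untreated ones in both clones. ASPM read 6707, 4870 and 6838 and 4614, 4748 and 4946 in E1, a change of -0.35 (SE 0.10, adjusted p = 0.00581), where DMSO replicate 2 overlapped the treated libraries. In F2 ASPM read 8925, 8560 and 9475 and 6044, 6824 and 6936, a change of -0.45 (SE 0.10, adjusted p = 0.000664), with no overlap. KIF2C was lower by -0.16 in E1 and -0.28 in F2 (adjusted p = 0.0435 and 0.000825). CCNB2 changed by more than KIF11 and ASPM in both clones, by -0.43 in E1 and -0.55 in F2. The changes of SPC24 were -0.32 and -0.37. NUSAP1 was left at 83.8% of its DMSO level in E1 and 69.5% in F2.

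CENPM had the largest change of any member in both clones. It read 666, 890 and 442 with DMSO and 418, 360 and 367 with tazemetostat in E1, a log2 change of -0.75 (SE 0.16, adjusted p = 0.000695). The 3 DMSO libraries of E1 differed widely, and without DMSO replicate 3 the change was -1.01 and passed the limit on size. In F2 CENPM read 769, 798 and 747 and 450, 434 and 419, a change of -0.83 (SE 0.16, adjusted p = 0.00022). The groups did not overlap in either clone, and tazemetostat left CENPM at 57.3% of its DMSO level in E1, 56.3% in F2 and 26.7% in WT. KIF20A and TOP2A were lower in F2, by -0.44 and -0.26 (adjusted p = 7.12e-05 and 0.0243). In E1 their values were -0.10 and -0.11 (adjusted p = 0.284 and 0.353). Whether the responses of the 2 clones differ from each other was not tested.

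Other genes were higher in the clones with tazemetostat. CENPI, the least changed gene in WT, read 1018, 943 and 1027 with DMSO and 1239, 1397 and 1375 with tazemetostat in E1, a log2 change of 0.42 (SE 0.07, adjusted p = 3.48e-05). In F2 it read 1085, 1123 and 1164 and 1420, 1437 and 1471, a change of 0.36. UBE2C read 2591, 2704 and 2606 and 3089, 3339 and 3325 in E1, a change of 0.30 (SE 0.07, adjusted p = 0.000814), and in F2 the change was 0.16 (SE 0.07, adjusted p = 0.0436). The treated libraries lay above the untreated ones in both clones for both genes. SKA1 read 874, 750 and 779 and 1153, 1225 and 1141 in F2, a change of 0.55 (SE 0.09, adjusted p = 6.75e-05), and its value in E1 was 0.23 (SE 0.09, adjusted p = 0.0582). ANLN and CENPE were higher in E1, at 0.34 and 0.29 (adjusted p = 0.00228 and 0.00983). In F2 their values were -0.02 and 0.12 (adjusted p = 0.853 and 0.26), and the sign of ANLN turned without DMSO replicate 1.

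The response of each clone was set against that of WT in the same fit, as the change with tazemetostat in the clone minus the change in WT. For E1 this difference was called higher in 40 of 52 genes, against 4.79% of all tested genes, and lower in 0 (5.21%). It was above 0 for all 52 past the adjusted p (17.2% of all tested genes) and below 0 for none (18.2%), with a median of 1.23 over the members and a range from 0.54 (CDC20) to 1.71 (SPC25). The largest were SPC25 at 1.71 (SE 0.18, adjusted p = 7.42e-07), KIF14 at 1.66 (SE 0.11, adjusted p = 2.91e-09) and NUF2 at 1.63 (SE 0.15, adjusted p = 1.47e-07). The smallest called were BUB1B (1.07), MAD2L1 (1.01) and SMC2 (1.00), all close to the limit of 1. BUB1B lost the call without WT tazemetostat replicate 3 (0.99). MAD2L1 lost it without E1 DMSO replicate 1, E1 tazemetostat replicate 2, WT DMSO replicates 1 or 2, or WT tazemetostat replicate 3 (0.90 to 0.97). SMC2 lost it without E1 DMSO replicate 2, E1 tazemetostat replicates 2 or 3, WT DMSO replicates 1 or 2, or WT tazemetostat replicate 3 (0.93 to 0.996). For F2 the difference was called higher in 35 genes, against 4.82% of all tested genes, and lower in 0 (2.66%). All 52 were above 0 past the adjusted p (13.7% of all tested genes) and none below it (13.2%), with a median of 1.10 and a range from 0.53 (CENPL) to 1.62 (MKI67). MKI67 (1.62 (SE 0.17, adjusted p = 1.19e-06)), NCAPG (1.58 (SE 0.10, adjusted p = 4.75e-09)) and ASPM (1.51 (SE 0.14, adjusted p = 2.13e-07)) led. NCAPD2 (1.03), CENPE (1.03) and RACGAP1 (1.01) were the smallest called. Without WT tazemetostat replicate 3 they were 0.98, 0.99 and 0.94 and none was called. NCAPD2 also lost the call without F2 DMSO replicate 3 (0.997), and RACGAP1 without F2 DMSO replicates 2 or 3, F2 tazemetostat replicate 3 or WT DMSO replicates 1 or 2 (0.97 to 0.9998). Both differences use the same WT libraries, so the 2 counts are not independent of each other.

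With DMSO alone, the differences between E1 and WT in these genes were small. Of the 52, 0 were called, against 2.69% of all tested genes called lower and 2.35% called higher, and edgeR and DESeq2 also called 0. An unadjusted p under 0.05 was found for 12 in limma and 13 in edgeR. The median log2 difference, E1 minus WT, was -0.07. Without the limit on size, 6 genes were lower in E1 (11.7% of all tested genes) and 1 was higher (11.4%). As shares of the 52, neither count was above that of all tested genes. SKA3 had the largest difference. It read 1289, 1327 and 1148 in WT and 893, 880 and 966 in E1, a log2 difference of -0.46 (SE 0.08, adjusted p = 0.00025), with no overlap. The other genes lower in E1 were SMC2, ASPM, ESPL1, NCAPH and SMC4. PTTG1 was the 1 higher member, and no member was higher without E1 replicate 2 or without any 1 of the 3 WT replicates. It read 2363, 2336 and 2235 in WT and 2541, 2602 and 2754 in E1, a difference of 0.19 (SE 0.06, adjusted p = 0.0394). The 6 became 3 without WT replicate 1 or WT replicate 2, and 12 when libraries were rescaled to the same total. Over all tested genes the 1893 lower became 1491 and 1467 without those WT replicates and were not counted after rescaling.

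With DMSO the estimates for F2 were at or slightly above those for WT for every member. Again 0 of the 52 were called, against 0.885% of all tested genes called higher and 2.09% called lower. edgeR and DESeq2 called 0, and an unadjusted p under 0.05 was found for 38 in limma and 39 in edgeR. The median log2 difference, F2 minus WT, was 0.30, and all 52 estimates were above 0. Without the limit on size, 31 genes were higher (8.10% of all tested genes) and 0 lower (12.1%). Leaving out any 1 library lowered the 31, to between 21 (without F2 replicate 1) and 28 (without F2 replicate 3). Over all tested genes the 1308 higher became 828 to 1115 in the same fits. In 39 genes the 3 F2 libraries lay above the 3 WT libraries (18.1% of all tested genes). KIF20A differed most. It read 3521, 3572 and 3358 in WT and 5294, 5118 and 4722 in F2, a log2 difference of 0.53 (SE 0.08, adjusted p = 6.14e-05). CENPN differed least, reading 1454, 1388 and 1249 in WT and 1498, 1317 and 1283 in F2, a difference of 0.00 (95% interval -0.15 to 0.15), and its sign turned without F2 DMSO replicate 1 or WT DMSO replicate 3.

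**Figure D4:**
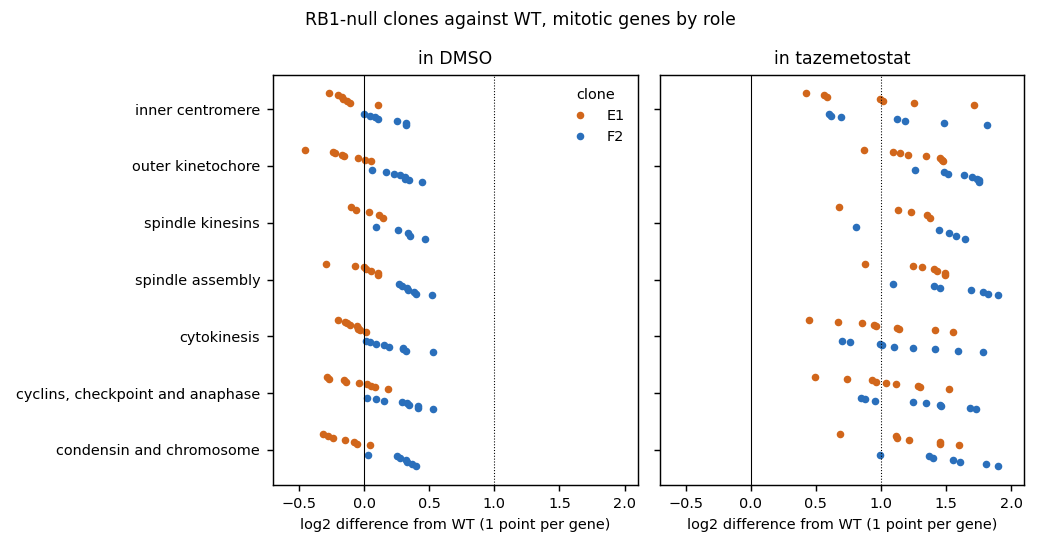
Log2 difference of E1 (orange) and F2 (blue) from WT for each member, grouped by role, with DMSO on the left and tazemetostat on the right, 1 point per gene. Dotted lines mark a log2 difference of 1. With DMSO no point reaches 1, and with tazemetostat every point lies above 0, between 0.43 (CENPL in E1) and 1.90 (MKI67 in F2).

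With tazemetostat both clones were well above WT. In E1, 35 of 52 genes were called higher, against 5.40% of all tested genes, and 0 lower (5.95%). All 52 were higher past the adjusted p (25.0% of all tested genes) and 0 lower (26.9%), and the median log2 difference was 1.14. CENPK led, reading 391, 418 and 324 in WT and 1110, 1287 and 1315 in E1, a difference of 1.71 (SE 0.10, adjusted p = 2.71e-10). TOP2A read 6582, 6868 and 5757 in WT and 17288, 20681 and 20156 in E1, a difference of 1.60 (SE 0.09, adjusted p = 1.51e-10), and KIF14 differed by 1.55 (SE 0.08, adjusted p = 1.72e-11). The smallest called differences were those of SPC24 (1.09), CCNB1 (1.04) and CENPH (1.01). CCNB1 was 0.98 and not called without E1 replicate 2 or WT replicate 3, and CENPH was 0.95 to 0.99996 and not called without E1 replicates 2 or 3 or WT replicates 1 or 3. In F2, 41 genes were called higher, against 7.31% of all tested genes, and 0 lower (4.97%). All 52 were higher past the adjusted p (25.1% of all tested genes) and 0 lower (27.9%), with a median of 1.46. MKI67 read 5768, 6023 and 5598 in WT and 18484, 23226 and 23440 in F2, a difference of 1.90 (SE 0.12, adjusted p = 3.55e-10). CKAP2L (1.89 (SE 0.08, adjusted p = 2.75e-12)) and NUSAP1 (1.82 (SE 0.09, adjusted p = 1.93e-11)) followed. RACGAP1 (1.10), TACC3 (1.09) and KIF23 (1.01) were the smallest called, and KIF23 was 0.96 and not called without WT replicate 3. For all 52 genes the 3 libraries of either clone lay above the 3 WT libraries, a pattern seen in 28.9% of all tested genes in E1 and 32.6% in F2. Both comparisons share the WT tazemetostat libraries.

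The clones also differed from each other, with lower values in E1. With DMSO, 0 of 52 genes were called between E1 and F2, against 3.52% of all tested genes called lower in E1 and 4.05% called higher. edgeR and DESeq2 called 0, and an unadjusted p under 0.05 was found for 41 in limma and 42 in edgeR. The median log2 difference, E1 minus F2, was -0.36, and without the limit on size 38 genes were lower in E1 (17.7% of all tested genes) and 0 higher (19.4%). The 38 became 31 without F2 replicate 1 and 41 without E1 replicate 3. Over all tested genes the 2866 lower became 2473 and 2938 in the same fits. NCAPH differed most. It read 1611, 1493 and 1785 in E1 and 2664, 2513 and 2458 in F2, a difference of -0.65 (SE 0.08, adjusted p = 4.06e-06). With tazemetostat, 0 were called, against 4.43% of all tested genes lower and 2.39% higher. An unadjusted p under 0.05 was found for 33 in limma and 35 in edgeR, and edgeR and DESeq2 called 0. The median was -0.23, with 26 genes lower in E1 without the limit (16.6%) and 0 higher (17.9%). The 26 became 18 without E1 replicate 1 and stayed 26 without E1 replicate 2. Over all tested genes the 2686 lower became 2702 and 2021 in the same fits. SKA1 differed most, reading 742, 826 and 732 in E1 and 1153, 1225 and 1141 in F2, a difference of -0.61 (SE 0.09, adjusted p = 6.55e-05). CCNB1 went slightly the other way in both media, at 0.06 with DMSO and 0.08 with tazemetostat, and neither value passed the adjusted p.

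Genes of related structures that are not members were counted in the same fits. With tazemetostat in WT, 6.77% of all tested genes were called lower and 14.5% higher. Of 25 other kinetochore genes, 8 (32.0%) fell in WT and 0 rose, with a median log2 change of -0.72. They included KNTC1 (-1.60), which brings the motor dynein to kinetochores, HJURP (-1.08), which loads CENPA, and ZWINT (-1.08). Of 8 other checkpoint genes, TTK (-1.09) and BUB1 (-1.08) fell (25.0%). Of 4 other condensin genes, the condensin II subunits NCAPH2 (-1.35) and NCAPG2 (-1.27) fell. Of 15 cohesin genes, ESCO2 (-1.17) and CDCA5 (-1.01), which act on cohesin in S phase, fell (13.3%), and the median was -0.47. Of 18 augmin and gamma-tubulin ring genes, HAUS1 (-1.48), HAUS7 (-1.46) and HAUS5 (-1.40) fell (16.7%). In both clones limma, edgeR and DESeq2 called 0 genes of these 5 lists. Of all tested genes, 3.78% were called lower and 11.3% higher in E1, and 3.71% and 13.3% in F2. An unadjusted p under 0.05 was found for 28 in E1 and 29 in F2 in limma, and for 33 in E1 and 32 in F2 in edgeR, among the genes of the 5 lists.

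Of 16 subunits of the anaphase-promoting complex, limma, edgeR and DESeq2 called 0 in each of the 3 lines, and the median in WT was -0.04. Over all tested genes 6.77%, 3.78% and 3.71% were called lower in WT, E1 and F2, and 14.5%, 11.3% and 13.3% higher. An unadjusted p under 0.05 was found in limma for 8 subunits in WT, 6 in E1 and 8 in F2; edgeR gave 9, 6 and 8. Of 11 tubulin genes, 4 (36.4%) rose in WT and 0 fell, led by TUBB2A at 3.71 on the log2 scale. TUBB2A read 817, 785 and 696 in WT with DMSO and 10450, 10185 and 9431 with tazemetostat. It also rose in E1 (2.78) and F2 (2.44), where TUBB2B (1.54), TUBA4A (1.35) and TUBB3 (1.11) rose and TUBB4A fell by 1.06. The tubulins called higher were thus 9.09% in E1 and 36.4% in F2, against 11.3% and 13.3% of all tested genes. Of 21 septin and ESCRT-III genes tested, SEPT10 (5.04) and CHMP1B (1.26) rose in WT (9.52%, against 14.5% of all tested genes), and SEPT10 rose in E1 (4.91) and F2 (5.62). Of 19 kinesins of transport, 3 (15.8%) rose in WT and 0 fell, a share near that of all tested genes. KIF21A led, reading 14.8, 32 and 27.4 with DMSO and 1119, 1140 and 1071 with tazemetostat, a log2 change of 5.50, and it rose by 4.59 in E1 and 5.57 in F2. TUBB2A, SEPT10 and KIF21A, which led these 3 lists in WT, thus rose in all 3 lines. The tubulin genes did not respond alike, however. With tazemetostat, 5 of 11 were called lower than WT in each clone (45.5%, against 5.95% of all tested genes in E1 and 4.97% in F2). The response difference from WT was called lower for 4 in E1 (36.4%, against 5.21%). In F2 it was called lower for 2 (18.2%, against 2.66%), TUBB2A (-1.27) among them. CHR matches were found in 8 of 22 windows (36.4%) of other kinetochore genes, 2 of 6 (33.3%) of other checkpoint genes, 1 of 2 of other condensin genes and 4 of 12 (33.3%) of cohesin genes. The shares were 18.8% for the anaphase-promoting complex, 18.2% for tubulins, 11.8% for augmin and gamma-tubulin ring genes, 9.09% for septins and ESCRT-III and 7.14% for transport kinesins, against 10.9% of the promoters of tested genes.

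**Figure D5:**
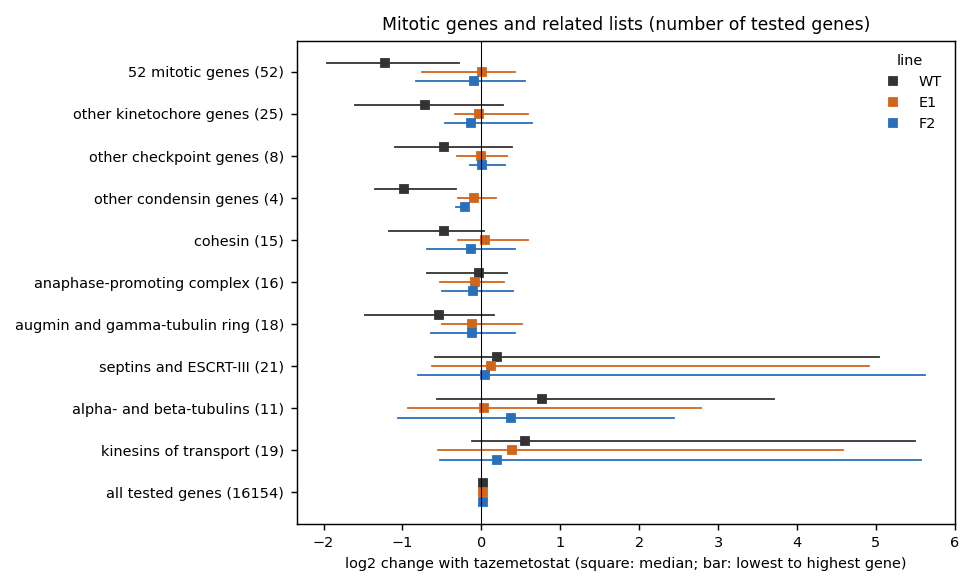
Log2 change with tazemetostat in WT (black), E1 (orange) and F2 (blue) for the 52 members and 9 lists of related genes (squares, median; bars, lowest to highest gene; the bottom line gives the median of all 16154 tested genes with no bar). The WT median of the members is -1.23, and the medians of the tubulins and transport kinesins in WT are 0.77 and 0.55.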

How the data were processed

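PolyA RNA of 18 libraries was read on an Illumina HiSeq 4000 as 50-base pairs after a stranded TruSeq preparation, per the labels. The submitters' processing notes name Trim Galore 0.4.4, STAR 2.6.0a, HTSeq, DESeq2 and build hg19; the annotation and the strand setting of the counting are not given in the sources used here. The authors deposited 1 table of normalized counts (a signal in which each library's counts are divided by a size factor), and dividing by its smallest step gave whole reads for 100% of values within 1e-06.

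Values were tested as log2(value + 1) with limma 3.58.1 (R 4.3.3; 6 group means, trended variance, no block, 11 contrasts) over genes with a mean of at least 10, with Benjamini-Hochberg adjustment over all 16154; a call needs an adjusted p below 0.05 together with a size of 1 or more on the log2 scale. Fold changes on this scale understate low genes. edgeR 4.0.16 and DESeq2 1.42.0 on the recovered counts, other pseudocounts, filters, scalings, fits and left-out libraries were alternatives. The script was tested on simulated data. The members and lists were chosen with earlier results of these data known. A gene of the other kinetochore list and an immune marker are not reported here and were left out of the list's counts and medians and of the marker levels. Named genes are 18 members that stand for the roles, the largest and smallest change of each role in WT, and the 3 largest and 3 smallest called (or all, if 10 or fewer) elsewhere, besides RB1; further members were named after their values were seen. Same-numbered libraries correlated in their deviations from the group means by more than 0.1 in every pair for F2 with DMSO against WT with DMSO (0.108 to 0.375) and against WT with tazemetostat (0.164 to 0.372). With the replicate number as a block, F2 against WT with DMSO still had 0 calls and the response difference of F2 still had 35.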

Additional observations from a re-analysis of the deposited data

Results flagged for a closer look

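The response to tazemetostat differed between the lines by a test of the difference itself, and so each such result below is listed. In E1 the change with tazemetostat minus that in WT was called higher for 40 of the 52 genes (4.79% of all tested genes). Among these the largest were SPC25 at 1.71 (SE 0.18), KIF14 at 1.66 (SE 0.11) and NUF2 at 1.63 (SE 0.15). The smallest called were BUB1B at 1.07, MAD2L1 at 1.01 and SMC2 at 1.00.

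For F2 the same difference was called higher for 35 genes (4.82% of all tested genes). MKI67 at 1.62 (SE 0.17), NCAPG at 1.58 (SE 0.10) and ASPM at 1.51 (SE 0.14) were the largest. NCAPD2 at 1.03, CENPE at 1.03 and RACGAP1 at 1.01 were the smallest called. Both sets of differences rest on the same 6 WT libraries. Groups of 3 are too small for a search for single outlying libraries.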

How the results depend on the processing

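Over the 11 comparisons, each count of called members stayed within 1.5 times under other pseudocounts, filters, scalings, edgeR, DESeq2 and fits of only the groups compared. Dropping the limit on the log2 change moved the counts from 0 to 20 for tazemetostat in E1, 26 in F2, 7 for E1 against WT with DMSO, 31 for F2 against WT with DMSO, 38 for E1 against F2 with DMSO and 26 with tazemetostat. Leaving out 1 library at a time gave 32 to 36 calls for tazemetostat in WT, 0 to 1 in E1 (1 without E1 DMSO replicate 3), 33 to 38 for E1 and 40 to 43 for F2 against WT with tazemetostat, 36 to 43 for the response difference of E1 and 29 to 36 for that of F2, and 0 elsewhere. With a replicate block the counts were 36, 35, 41, 40 and 35 for the comparisons with calls, as without it; same-numbered libraries correlated by -0.244 to 0.375, and 16 of 39 pairs correlated best with their own number, and every pair was over 0.1 for F2 with DMSO against either WT group but for no other 2 groups compared. Scaling to the same total shifted the median of all genes by -0.15 in WT and raised the members called there from 36 to 41, with CENPE, SKA1 and SMC2 among those that passed the limit. Of 1919 gene values under alternatives, 1833 kept direction and side, 43 lost and 36 gained the call (30 of the 36 by dropping the limit), and 7 turned sign. In F2 with tazemetostat CDC20 was -0.0035 with upper-quartile scaling. Over left-out libraries the values that turned ranged from -0.078 to 0.040 for ANLN and -0.11 to 0.028 for CENPF in F2, from -0.26 to 0.066 for CDC20 and -0.15 to 0.0027 for NDC80 in E1, and from -0.066 to 0.049 for CENPN of F2 against WT with DMSO. The cause was not tested. Without the 2 libraries with the fewest reads, chosen after the data were seen, PRC1, CCNB1 and BUB1B lost the call in WT. The lowest member value rested on 152 reads, and the share of counting error in the spread between libraries was not tested.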

Other observations

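The order of the members' responses was partly alike in the 3 lines. Across the 52 genes the log2 changes of E1 and F2, which share no library, had a Pearson r of 0.841 (Spearman 0.81), where all tested genes gave 0.928 (0.762). The changes of WT and E1 had an r of 0.612 (0.504) and those of WT and F2 an r of 0.671 (0.603), against 0.91 (0.664) and 0.933 (0.76) over all tested genes. These are descriptions across genes, which are not independent replicates. CENPM was the lowest in both clones, and CENPI, CEP55 and CKAP2L were among the higher genes in both.

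In some groups the members moved together between libraries. WT DMSO replicate 3 was the lowest of its group for 46 of the 52 genes, WT tazemetostat replicate 3 for 49, E1 tazemetostat replicate 1 for 45 and F2 DMSO replicate 3 for 41. WT tazemetostat replicate 3 and F2 DMSO replicate 3 were also the 2 libraries with the fewest reads, 28954561 and 25709489. The spread between libraries of these groups is thus shared by the members, and the members are not separate tests of a group difference. In E1 with DMSO and F2 with tazemetostat no library was the lowest for more than 28 and 24 members. The like counts over all tested genes were not made, so a shift of a whole library and one of the members cannot be told apart.

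E1 DMSO replicate 2 was low for some members and high for others. CENPF read 16059, 11713 and 15639 in the 3 libraries of that group, ASPM 6707, 4870 and 6838 and MKI67 16039, 11690 and 14425, with replicate 2 the lowest each time. CENPM read 666, 890 and 442 and CDC20 4727, 6253 and 3991, with replicate 2 the highest. For CENPM replicate 3 lay about as far below replicate 1 as replicate 2 lay above it. CENPM had the largest coefficient of variation of any member in that group, 33.6%. Replicate 2 stood apart for some genes outside the members too: TPR read 14748, 11198 and 15762 and MAD2L2 1745, 2440 and 1431 in that group. These genes were picked after their values were seen, and such genes were not counted over all tested genes.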
